A study of Homo sapiens with 52 samples.

Results

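HS578T cells carrying the short hairpin RNA shNRP1#3 were compared with HS578T cells carrying a non-targeting hairpin, shNT, by bulk RNA sequencing. HS578T is an established human triple-negative breast cancer line of the claudin-low class, whose cells have few epithelial junction proteins and many mesenchymal ones. The comparison uses 5 of the 52 samples of the series, namely 2 of shNRP1#3 and 3 of shNT. In both groups the hairpin was delivered in the pLKO.1 lentiviral vector, puromycin at 1 µg/mL served to select the transduced cells, and RNA was collected 48 h after seeding. The shNRP1#3 hairpin is directed at the transmembrane form of NRP1, and the control cells carry the vector, the selection and a hairpin with no intended target. The replicates of each group are consecutive passages of 1 selected population, so no p-value measures the spread between separate transductions. The main fit takes its spread from all 17 HS578T samples. Some of these were transfected with small interfering RNA (siRNA) and are not passages of a transduced population.

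Neuropilin-1, the product of NRP1, is a single-pass membrane coreceptor with a short cytoplasmic tail. It binds class 3 semaphorins together with plexins, binds VEGF family ligands together with VEGF receptors, and has been tied to signalling by PDGF, EGF and TGF-beta receptors. Shorter transcripts that end upstream of the transmembrane exons encode soluble forms, which hold the ligand-binding domains but cannot signal through the membrane.

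The target of the hairpin lies in the coding sequence of NRP1, in exon 15 of 17 of the transcript NRP1-206, on the minus strand of chromosome 10. The stretch is shown because it separates the transcripts that the hairpin can match in full from those it cannot. In GRCh38, at chr10:33185656-33185685, the transcript strand reads as follows, with the 21 bases of the hairpin's sense strand in capitals.
NRP1 target: gggattGCTGTGGATGACATTAGTATTaat
Of the 14 annotated NRP1 transcripts, 4 hold all 21 bases (NRP1-201, NRP1-206, NRP1-207 and NRP1-208) and the other 10 hold none of them. NRP1-204, a shorter transcript of 12 exons, is among the 10. NRP1-209, a fragment of 2 exons and 497 bases, also lacks the target but ends at the same stop codon as NRP1-206.

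Total expected counts, the read numbers that RSEM assigns to genes, were 50557343 and 44109450 in shNRP1#3 and 57788696, 31676716 and 39754608 in shNT, within the range of 25310443 to 72003442 over the series. The first replicate of each group stood apart from the later ones. On log2 CPM over the genes tested, shNRP1#3 replicate 1 correlated at 0.980 with shNT replicate 1 but at 0.968 with its own group's replicate 2. That second shNRP1#3 library correlated at 0.979 with shNT replicate 3, and shNT replicates 2 and 3 correlated at 0.985 with each other. Samples with the same number deviated together from their group means, most clearly those numbered 1. For replicate 2 the numbers pair less well. The deviation of shNRP1#3 replicate 2 went with that of shNT replicate 3 (r = 0.487) more than with that of shNT replicate 2 (r = 0.243). With 2 samples in shNRP1#3, their deviations are equal and opposite, so their correlations are not independent. A fit of the 8 HS578T shRNA samples with the replicate number as a block was run with these limits. Its values are given beside the shNRP1#3 results of HS578T whose call the block changes. RNA of the 2 other cell lines of the study was at most 0.394% of their level in these 5 libraries, over 3 marker genes of MDA-MB-231 and 11 of SUM159PT. Of the claudin-low markers, some matched the label in both groups and others did not. CLDN3 was at 0 in all 5 libraries and CLDN4 at most 1.44 CPM, whereas VIM lay between 6381 and 8730 CPM and CD44 between 1220 and 1785 CPM. SNAI1, which the label also expects, was scarce (values below), and ALDH1A1 was not among the genes tested.

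NRP1 itself was measured at 40.3 and 40.4 CPM (read counts relative to the library total after TMM normalisation) in the 2 shNRP1#3 samples and at 107, 110.0 and 146 CPM in the 3 shNT samples. Both knockdown samples lay well below every control, and the groups did not overlap. The log2 fold change was -1.59 (SE 0.289), with an adjusted p of 0.0690 in edgeR's quasi-likelihood test, which misses the threshold of 0.05. With the replicate block over the 8 shRNA samples it was -1.44 (SE 0.230) and the adjusted p was 4.52e-05. The HS578T siNRP1#5 libraries, of a siRNA against NRP1, held 3 marker genes of MDA-MB-231 at a median 20.9%, 22.4% and 11.7% of that line's level. The siNRP1#3 libraries reached 6.36%, and the source of these reads was not tested. Without the siNRP1#5 libraries the NRP1 log2 fold change was -1.59, with an adjusted p of 0.0247. In TPM, a transcript share that also corrects for length, NRP1 stood at 13.4 and 18 in shNRP1#3 and at 29.3, 36.5 and 51.5 in shNT. Fewer NRP1 transcripts in every cell and fewer cells with NRP1 cannot be told apart in bulk RNA.

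The transcripts of NRP1 did not move alike. The 4 transcripts with the full target summed to 4.76 and 6.30 TPM in shNRP1#3 and to 17.2, 16.1 and 25 TPM in shNT, so that the knockdown mean was 28.5% of the control mean. The 9 transcripts that lack the target, leaving aside NRP1-209, summed to 7.67 and 10.6 TPM against 8.73, 10.8 and 12.7 TPM, or 85% of the control mean, and there the groups overlapped. NRP1-209, which has no base of the target but shares the 3′ end of the full-length form, went from 3.33, 9.67 and 13.7 TPM in shNT to 0.960 and 1.10 TPM in shNRP1#3. At the single-transcript level NRP1-206, the main full-length form, had a log2 fold change of -1.84 (SE 0.868) and NRP1-204 one of -0.40 (SE 0.602), both with an adjusted p of 1 over the 95852 transcripts tested, of which 5 were called (0.00522%). NRP1-204 made up 38.3% and 41.8% of NRP1 in shNRP1#3 and 21.5%, 22.6% and 18.7% in shNT. Its mean share was 40.1% ± 2.50 (SD, n = 2) against 20.9% ± 2.00 (SD, n = 3), a difference of 19.1 percentage points. An exact two-sided permutation test gave p = 0.1, the smallest that the 10 possible splits of 2 against 3 samples allow. Reads shared between overlapping transcripts are divided by RSEM, and the error of that division is not in these values.

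**Figure D1:**
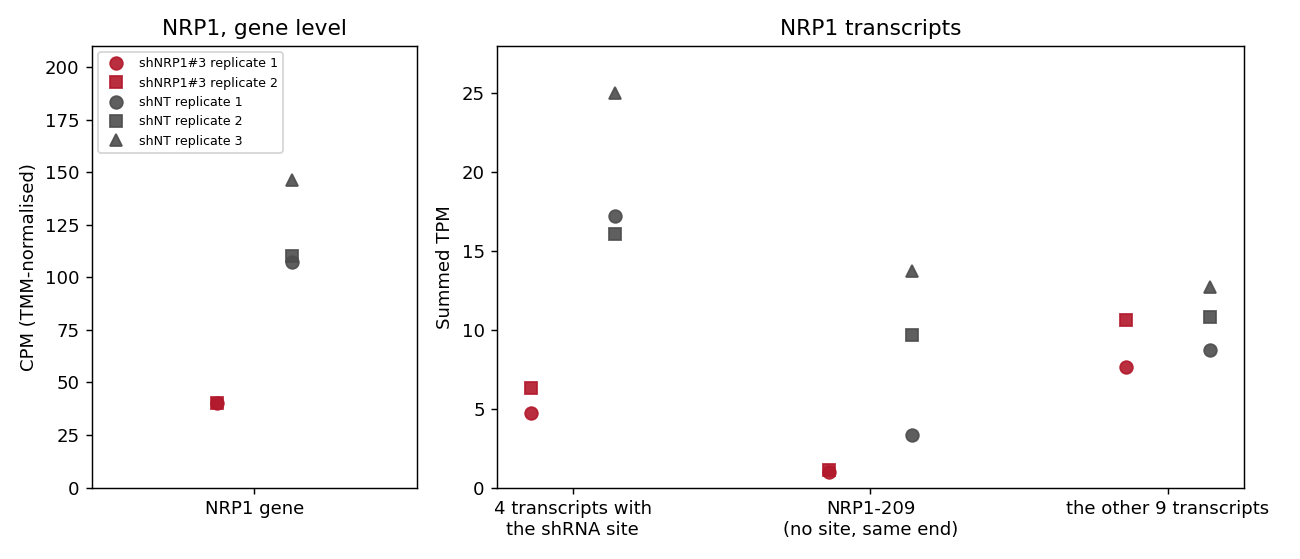
NRP1 in each of the 5 samples: the left panel plots CPM of the gene, and the right panel the summed TPM of the 4 transcripts with the full target, of NRP1-209 and of the other 9 transcripts, with one symbol per replicate. The shNRP1#3 samples lie below every shNT sample for the gene (40.3 and 40.4 against at least 107 CPM), for the 4 target-bearing transcripts and for NRP1-209, and overlap the controls for the other 9.

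Beyond NRP1, 7 of 19661 genes tested passed an adjusted p of 0.05 (0.0356%), 6 lower (0.0305%) and 1 higher (0.00509%) in shNRP1#3. The lower genes, in order of fold change, were PLEKHA6, PFKP, SNAPIN, TPRG1L, DPF2 and KIAA1191, and the higher gene was ALDH1L1. At an unadjusted p under 0.05, 509 genes were higher (2.59%) and 840 lower (4.27%).

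SNAPIN, a SNARE-binding subunit of the BLOC-1 complex in lysosome and vesicle transport, was at 8.51 and 10.5 CPM in shNRP1#3 and at 35.6, 39.5 and 38.4 CPM in shNT. Its fold change was -1.99 on the log2 scale (SE 0.229, adjusted p 0.00228), with no overlap and little spread within either group. PFKP, the platelet isoform of the glycolytic enzyme phosphofructokinase, fell from 228, 283 and 235 CPM in shNT to 60.7 and 50.4 CPM in shNRP1#3. This was a log2 change of -2.16 (SE 0.276, adjusted p 0.00484). It was the most abundant of the 7 genes in the controls and the one that lost the most reads.

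TPRG1L, a vesicle-associated protein of presynaptic terminals, was measured at 33.9 and 26.6 CPM against 82.9, 86.9 and 79.6 CPM (log2 fold change -1.46, SE 0.202, adjusted p 0.00931). DPF2, a PHD finger subunit of the BAF chromatin remodelling complex, stood at 30.3 and 27.9 CPM against 68.9, 92.8 and 72.2 CPM, a log2 change of -1.42 (SE 0.232, adjusted p 0.0322). KIAA1191 was at 62.1 and 56.8 CPM in shNRP1#3 and at 167, 129 and 150.1 CPM in shNT (log2 fold change -1.32, SE 0.205, adjusted p 0.0239). In all 3 genes the lowest control was above the highest knockdown sample. PLEKHA6, a pleckstrin homology protein of cell junctions, was a low-level gene, at 1.63 and 0.747 CPM against 8.67, 8.26 and 5.94 CPM, and its log2 change was -2.68 (SE 0.438, adjusted p 0.0322).

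ALDH1L1, a folate enzyme that oxidises formyltetrahydrofolate, rose from 0.157, 0.234 and 0.123 CPM in shNT to 2.04 and 1.23 CPM in shNRP1#3, by 3.26 on the log2 scale (SE 0.504, adjusted p 0.0239). Even after the rise it was a scarce transcript, below every level given above for PFKP or NRP1. The 4 higher genes with the next lowest p-values missed the threshold without the block. They were PEX5L, a cofactor of HCN channels (1.51 and 2.01 against 0.612, 0.368 and 0.270 CPM, adjusted p 0.103), L3HYPDH, a hydroxyproline dehydratase (16.1 and 16.5 against 6.57, 7.22 and 7.68 CPM, adjusted p 0.120), RASSF3 and PMAIP1. RASSF3, of the RAS-association family, had an adjusted p of 0.136. PMAIP1, which encodes the BH3-only protein NOXA, lay at 8.18 and 13.0 CPM against 4.37, 2.98 and 3.51 CPM (adjusted p 0.142). With the replicate block all 4 passed, at adjusted p-values of 0.00295 for PEX5L, 0.00218 for L3HYPDH, 0.00079 for RASSF3 and 0.000603 for PMAIP1. All 7 called genes also passed in the fit with the replicate block. Without shNRP1#3 replicate 1, edgeR called 0 genes (1862 at an unadjusted p under 0.05), without shNRP1#3 replicate 2 also 0 (1071 unadjusted), and without shNT replicate 2 or replicate 3 it called 4, while DESeq2 on all 17 samples called 146.

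**Figure D2:**
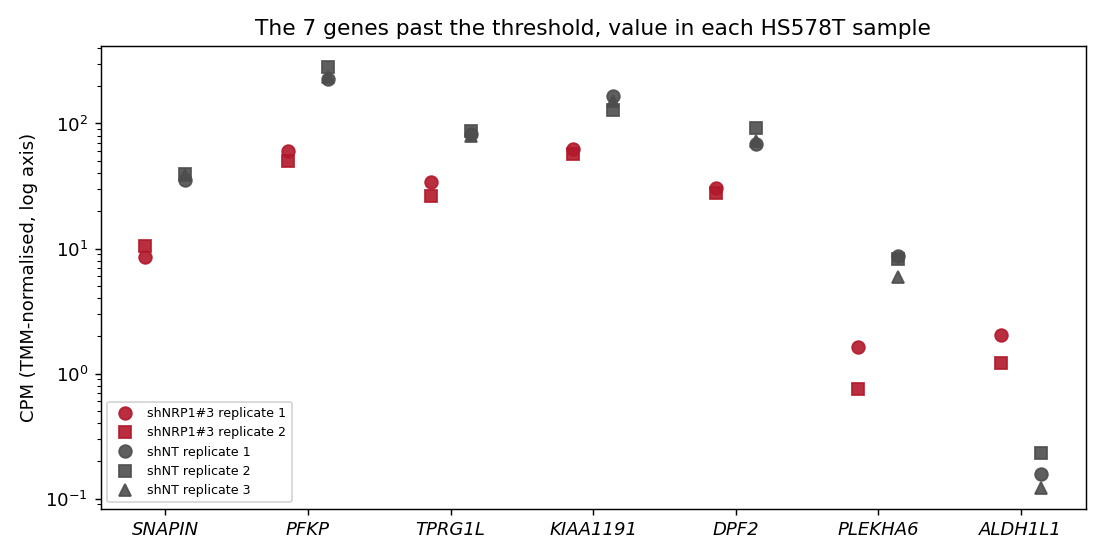
The 7 genes past the threshold, as CPM on a log axis in each of the 2 shNRP1#3 and 3 shNT samples, with one symbol per replicate. For every gene the 2 groups are separated, with SNAPIN at most 10.5 CPM in shNRP1#3 and at least 35.6 CPM in shNT, and ALDH1L1 at least 1.23 against at most 0.234 CPM.

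The lower genes shared a feature with the hairpin that the comparison had not used. All 15 overlapping windows of 7 bases of the 21-base target were searched on the transcript strand of annotated 3′ untranslated regions, 1 transcript a gene, and their reverse complements were searched too. The window GACATTA, which begins at base 10 of the target, was present in 5 of the 6 lower genes (83.3%) and in 9.5% of the 14131 tested genes with an annotated 3′ UTR. The other 14 windows were present in 0 to 33.3% of the 6, and the reverse complement of GACATTA in 1 of them. The window was singled out after these values were seen, so the share is a description of these genes and carries no test. Its matches in GRCh38 are printed with 10 bases on either side, 5′ to 3′ on the transcript strand and with the 7 matching bases in capitals, to show what the 5 genes have in common and where the likeness ends.
SNAPIN (chr1:153661392-153661418, plus strand): tagaccttcaGACATTAaaaagggagc
PFKP (chr10:3136663-3136689, plus strand): acgtattattGACATTAatacctaatc
TPRG1L (chr1:3630051-3630077, plus strand): tgttcataaaGACATTAagaagtggat
DPF2 (chr11:65352800-65352826, plus strand): tagtggcactGACATTAagtagtgggg
KIAA1191 (chr5:176346501-176346527, minus strand): taggtaaatgGACATTAaactttttta
The 3′ UTRs of these genes ranged from 223 bases in PFKP to 2503 bases in DPF2, each with 1 match. No match was found in the 3′ UTR of PLEKHA6 (3935 bases) or of ALDH1L1 (221 bases).

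Just outside the threshold of the 17-sample fit stood further genes with the same 7 bases, named after their values were seen. GIT1, an ArfGAP scaffold of focal adhesions, was at 16.5 and 16.2 CPM against 45.9, 47.7 and 38.3 CPM (log2 fold change -1.43, adjusted p 0.0582). ACAA2, the mitochondrial 3-ketoacyl-CoA thiolase of fatty acid oxidation, was at 39.1 and 42.0 CPM against 106, 77.9 and 79.2 CPM (log2 fold change -1.11, adjusted p 0.0709). PAFAH1B2, a catalytic subunit of a platelet-activating factor acetylhydrolase, holds 3 matches and had a log2 fold change of -1.26 (adjusted p 0.0709). The sites of GIT1 and ACAA2 are shown beside those above.
GIT1 (chr17:29574620-29574646, minus strand): ggccactccaGACATTAatccccaccc
ACAA2 (chr18:49783583-49783609, minus strand): aactatagaaGACATTAaaagaaatcg
Other genes at a similar p did not hold the window. TIE1, a receptor of the angiopoietin pathway, was at 0.488 and 0.326 CPM against 14.3, 3.44 and 2.75 CPM (log2 fold change -4.07, adjusted p 0.0582) with no match in its 386-base 3′ UTR. In all of these genes the 2 groups were separate, and with the replicate block all passed, at adjusted p-values of 4.66e-05 for GIT1, 0.000989 for ACAA2, 0.0011 for PAFAH1B2 and 0.0166 for TIE1. In the same range of p, the 3′ UTRs of NRP1, CSGALNACT1, TOX2, GSTM2 and LPAR1 had no match either, and that of NPTXR had 1. The genes described here were picked and give no share. The window is in 9.5% of all tested genes with an annotated 3′ UTR.

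With all genes pooled, the window went with little difference in the median. The median log2 fold change was 0.0 in the 12788 genes without a match, -0.01 in the 1165 with 1 match and 0.09 in the 178 with more. Genes were split into 3 equal parts by 3′ UTR length, at 708 and 2097 bases. In the part with the shortest 3′ UTRs the median was -0.47 in the 73 with a match and -0.09 in the 4643 without. In the middle part the corresponding medians were -0.13 (287 genes) and -0.008 (4418 genes). In the part with the longest they were 0.06 (983 genes) and 0.12 (3727 genes). Genes that hold GACATTA have longer 3′ UTRs on the whole, and longer 3′ UTRs went with higher fold changes here. The part of the window in any gene's change was not tested.

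The same hairpin was used in SUM159PT and MDA-MB-231, which have shNT controls of their own, and the lower genes recurred there. Of the 7 genes, 5 were also called in the same direction in SUM159PT, where 281 of 20067 genes were called (1.4%), and 5 in MDA-MB-231, where 686 of 18800 were (3.65%). In both lines these were SNAPIN, PFKP, TPRG1L, DPF2 and KIAA1191, the genes with the window. SNAPIN had a log2 fold change of -1.94 in SUM159PT and -1.12 in MDA-MB-231, TPRG1L of -2.03 and -1.38, and PFKP of -2.43 and -0.82. In neither line did PLEKHA6 (-0.51 and -0.18) or ALDH1L1 (0.86 and 0.03) pass. TIE1, outside the 7 and without the window, was called lower in SUM159PT (-4.4, edgeR adjusted p 0.0114) and in MDA-MB-231 (-1.39, edgeR adjusted p 0.035). PLEKHA6 was also lower with a second hairpin, shNRP1#5, in SUM159PT (-2.10, edgeR adjusted p 0.000558). With the siRNA siNRP1#3 in HS578T it was lower by -2.10 (edgeR adjusted p 0.00399). At -0.93 with shNRP1#5 in HS578T it passed only with the replicate block. It did not pass with siNRP1#5 in HS578T or with shNRP1#5 in MDA-MB-231. Some genes with the window were also called with other sequences, in fits without the block. KIAA1191 was lower with shNRP1#5 in HS578T (-1.35, edgeR adjusted p 0.0023), SUM159PT (-1.45, 0.00095) and MDA-MB-231 (-0.47, 0.0137). SNAPIN was lower with siNRP1#3 (-0.72) and siNRP1#5 (-0.84) in HS578T, and TPRG1L with shNRP1#5 in MDA-MB-231 (-0.47). PFKP and DPF2 were not called in these contrasts. TIE1 was called lower with shNRP1#5 in HS578T (-2.55).

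A set of 82 genes was lower past the threshold in both other lines and tested in HS578T. In HS578T 80 of the 82 had a negative log2 fold change, with a median of -0.94, whereas 9733 of the 19661 genes tested did and their median was 0.00. The 2 shNRP1#3 samples lay below all 3 shNT samples in 61 of the 82 (10.4% of all genes), 5 passed the threshold, and 41 of the 81 tested in the blocked fit were lower past the threshold and 0 higher, where 3.25% of genes were called lower and 1.33% higher. The window was present in 48 of these genes and absent from 33 with an annotated 3′ UTR. The HS578T median was -1.01 with it and -0.77 without it. Both subsets were therefore lower, and the groups were separate in 42 of the 48 and 18 of the 33. Among the lower genes of each line, 67 of 193 held the window in SUM159PT (34.7%, against 9.42% of all genes tested there) and 118 of 379 in MDA-MB-231 (31.1% against 9.54%). The genes called lower were 1.06% of those tested in SUM159PT and 2.19% in MDA-MB-231. The largest share of another of the 15 windows was 29.0% in each line. The windows differ in how common they are, from 7.18% to 19.3% of the genes tested in HS578T with an annotated 3′ UTR. In the fit of HS578T with the replicate block, 75 of 553 lower genes held GACATTA (13.6% against 9.6%). Other windows reached up to 22.6%, for GCTGTGG, which was in 19.3% of the 14131 tested genes with an annotated 3′ UTR. With shNRP1#5, whose sequence differs and which lowered 2.7% of genes in SUM159PT and 11.9% in MDA-MB-231, the window was in 9.21% and 7.9% of the lower genes.

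**Figure D3:**
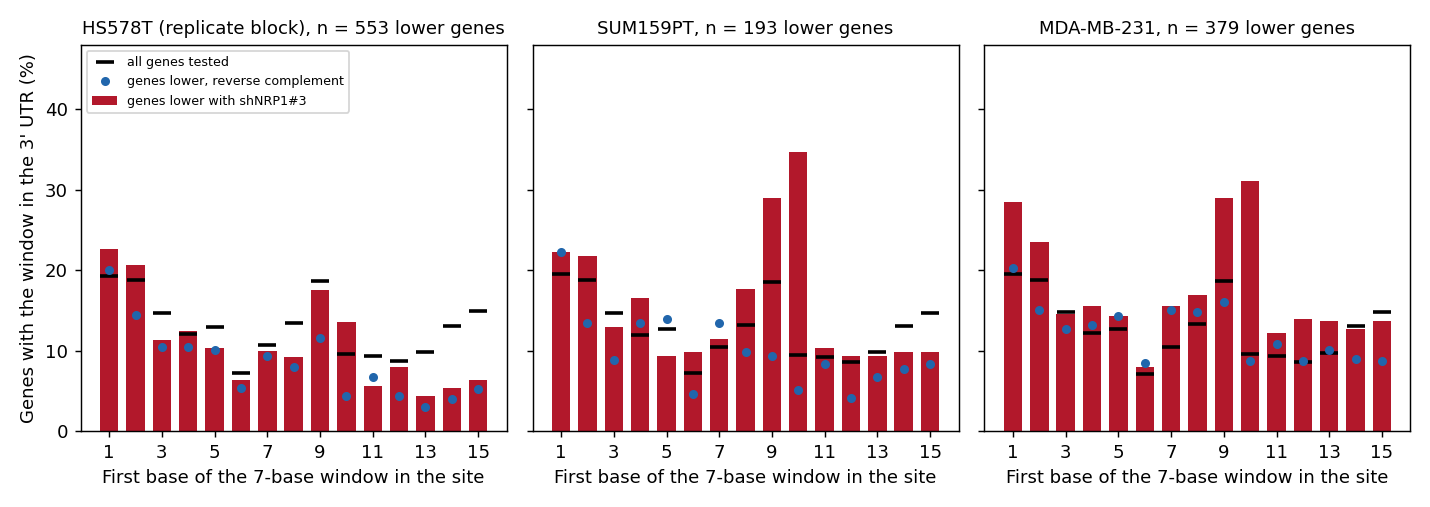
Percent of genes lower with shNRP1#3 that hold each of the 15 windows of the hairpin target in the 3′ UTR, in HS578T (fit with the replicate block), SUM159PT and MDA-MB-231, against the first base of the window, with dashes for all genes tested and dots for the reverse complement. The window at base 10 is the tallest bar in SUM159PT (34.7% of 193 genes) and MDA-MB-231 (31.1% of 379). In HS578T it reaches 13.6% of 553, and the window at base 1, a common one, is the tallest (22.6%, against 19.3% of all genes with a 3′ UTR).

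**Figure D4:**
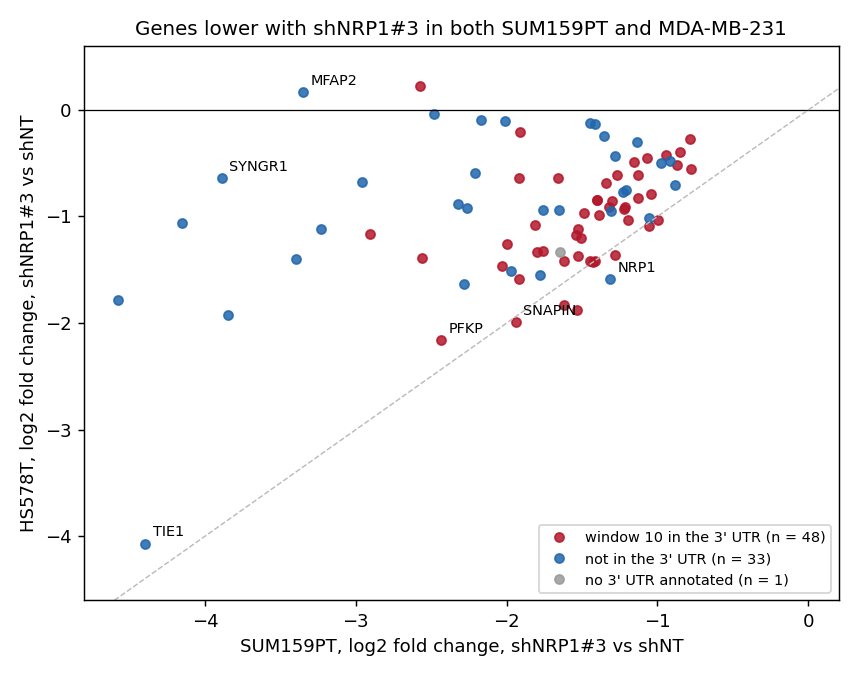
Log2 fold change with shNRP1#3 in HS578T (vertical) against that in SUM159PT (horizontal) for the 82 genes called lower in both SUM159PT and MDA-MB-231, coloured by whether the 3′ UTR holds GACATTA, with a dashed line of equal change. In HS578T 80 of the 82 points lie below 0.

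The change was not of equal size in every line. The interaction of hairpin and line, tested in a fit of all 52 samples, passed for 24 of 23416 genes between HS578T and SUM159PT (0.102%), 13 of them with a positive difference (0.0555%), and for 99 between HS578T and MDA-MB-231 (0.423%). Among the 82 shared genes, 5 were less lowered in HS578T than in SUM159PT, namely MFAP2 (difference 3.60 on the log2 scale), SYNGR1 (3.24), LRFN1 (2.48), CAPN5 (1.94) and JCAD (1.74). Of these, named after their values were seen, SYNGR1, a synaptic vesicle protein, lay at -0.64 in HS578T without the block and passed with it (-0.93, adjusted p 0.00947), with overlapping groups. MFAP2, a protein of elastic microfibrils, lay at 0.16 without the block and -0.15 with it and passed in neither fit. The 82 genes were chosen for being lower in SUM159PT, which favours such a difference, so the 5 are a description. PLEKHA6 was lowered more by the hairpin in HS578T than in either other line. Its change differed by -2.15 (adjusted p 0.0244) from that in SUM159PT and by -2.48 (adjusted p 0.00174) from that in MDA-MB-231. The change of ALDH1L1 in HS578T was above that in MDA-MB-231 by 3.26 (adjusted p 0.00174), and its difference of 2.43 from the change in SUM159PT did not pass (adjusted p 0.299). Both counts moved with single libraries. Against SUM159PT 4 to 18 genes passed when 1 library of either line was left out. Against MDA-MB-231 the count was 30 to 40 without 1 of that line's shNT replicates, 41 and 52 without an HS578T shNRP1#3 replicate, and 179 and 182 without replicates 1 and 2 of MDA-MB-231 shNRP1#3. Replicate 3 of MDA-MB-231 shNRP1#3 held HS578T-type RNA at 2.12% of the HS578T level over 60 marker genes, against at most 0.119% in the other shNRP1#3 and shNT libraries of that line, and without it 20 genes passed. Of the 92 genes with a negative interaction (0.393%), 84 were at most 0.5 CPM in every MDA-MB-231 shNT sample.

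In the fit of the 8 HS578T shRNA samples with the replicate number as a block, 848 of 18496 genes were called (4.58%), 602 lower (3.25%) and 246 higher (1.33%). In that fit a change is read within each replicate number. The fit leans on its libraries. It called 379 genes without shNRP1#3 replicate 2, 371 without shNT replicate 1 and 531 without shNT replicate 2. Without shNRP1#3 replicate 1 it called 2509, of which 1515 were higher and 994 lower, so that the excess of lower genes turned around. Leaving out either shNRP1#3 replicate leaves 1 library in that group. On simulated counts of the same layout, 14.3% of its 196 calls were of unchanged genes, so that its calls are less firm than the 7 above. The simulation gave the replicate numbers a true pairing, so the effect of a wrong pairing is not in that share. In the 17-sample edgeR fit without the block 0 members of any gene list were called.

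Among the partners of NRP1 at the membrane, those that passed with the block were all lower, and most did not pass. Of 21 genes in the list of NRP1 coreceptors, ligands and partner receptors, 20 were tested, all but FLT4, with a median log2 fold change of -0.33 against 0.00 over all genes. Without the block 0 were called by edgeR and 6 were lower at an unadjusted p under 0.05 (4.27% of all genes). In 6 of the 20 the groups were separate, all lower (10.4% of all genes). With the block 6 of 19 were lower and 0 higher, where 3.25% of all genes were lower and 1.33% higher. The blocked median was -0.53 against 0.02. With shNRP1#5 against shNT the blocked fit called 5 members of this list higher and 3 lower.

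Among the ligands, SEMA3F, a class 3 semaphorin that prefers neuropilin-2, was at 14 and 6.90 CPM in shNRP1#3 and at 43.1, 21.3 and 15.8 CPM in shNT. Its log2 fold change was -1.62 in the blocked fit (SE 0.252, adjusted p 2.9e-05) and -1.36 without the block (adjusted p 0.365). Replicate 1 was the higher library in both groups, and the highest knockdown value was below the lowest control. SEMA3B lay at 13.2 and 4.94 CPM against 36.7, 13.5 and 11.2 CPM, lower within each number (blocked log2 fold change -1.56, SE 0.259) although the groups overlapped. SEMA3A, SEMA3C, SEMA3D and SEMA3E did not pass, nor did the VEGF family ligands VEGFA, VEGFB, VEGFC and PGF. VEGFA, the main ligand of that family, was at 153 and 110 CPM against 155, 158 and 187 CPM.

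Among the receptors, PLXNA4, a plexin that transmits SEMA3A signals in neurons, was at 3.20 and 8.10 CPM against 10.6, 28.4 and 25.4 CPM (blocked log2 fold change -1.62, SE 0.261, adjusted p 4.64e-05). PLXND1, the receptor of SEMA3E, was at 158 and 58.5 CPM against 216, 175 and 143 CPM (blocked log2 fold change -1.09, SE 0.258, adjusted p 0.00727). L1CAM, an adhesion molecule that joins NRP1 in semaphorin signalling, was at 50.9 and 23.0 CPM against 117, 92.3 and 61.9 CPM (blocked log2 fold change -1.64, SE 0.243, adjusted p 1.25e-05). The groups were separate for PLXNA4 and L1CAM and overlapped for PLXND1. FLT1, which encodes VEGF receptor 1, passed too, but from 1.40 CPM in shNT replicate 1 and at most 0.147 CPM in the other 4 libraries. NRP2, the paralogue of NRP1, was at 22.9 and 13.5 CPM against 18.2, 11.5 and 14.6 CPM and did not pass (blocked log2 fold change 0.20, adjusted p 0.721). Neither did PLXNA1, PLXNA2, PLXNA3, KDR or the adaptor GIPC1, which binds the cytoplasmic tail of NRP1.

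**Figure D5:**
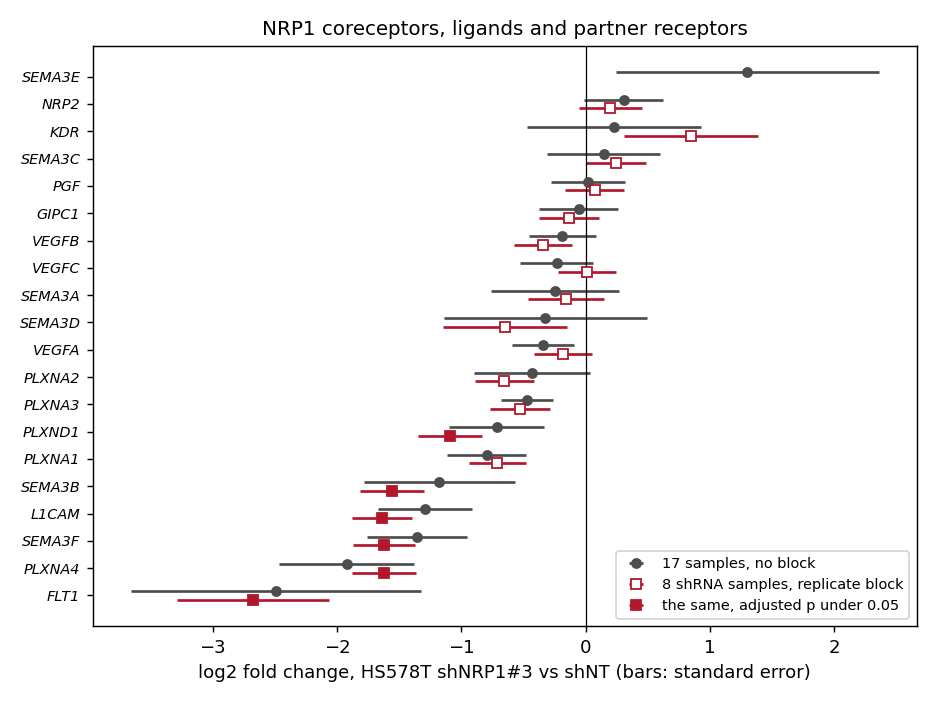
Log2 fold change of shNRP1#3 against shNT, with its standard error, for the tested NRP1 coreceptors, ligands and partner receptors, from the 17-sample fit and from the 8-sample fit with the replicate block, in which filled squares passed an adjusted p of 0.05. The 6 filled genes, among them SEMA3F (-1.62), L1CAM (-1.64) and PLXNA4 (-1.62), are all on the lower side.

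Of 10 receptor kinases linked to NRP1, 4 were lower with the block (3.25% of all genes) and 0 higher (1.33%). PDGFRB, the PDGF receptor beta, was at 95.7 and 49.6 CPM against 138, 129 and 112 CPM (blocked log2 fold change -1.03, SE 0.253). ERBB2 and ERBB3, of the EGF receptor family, and TGFBR1 were the others, at -0.86, -1.34 and -1.10. EGFR was not among the genes called. The groups of PDGFRB and of ERBB2 (47.5 and 25.5 against 58.3, 66.5 and 52.9 CPM) did not overlap.

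Genes of the matrix and of cell attachment changed in both directions in the blocked fit. Of 20 collagen and matrix genes 3 were lower and 0 higher, where 3.25% of all genes were lower and 1.33% higher. COL6A1 was at 1315 and 836 CPM against 1650, 2370 and 2080 CPM. COL6A2, its partner chain in collagen VI, was at 1165 and 826 CPM against 1397, 1772 and 1558 CPM. Their blocked log2 fold changes were -0.92 (SE 0.240) and -0.76 (SE 0.234), and THBS2, at no more than 1.76 CPM in any library, was the third. TIMP3, an inhibitor of metalloproteinases bound to the matrix, was at 401 and 201 CPM against 828, 449 and 541 CPM (blocked log2 fold change -1.03, SE 0.228), while the protease gene MMP3 was higher at no more than 2.76 CPM. Among integrin genes ITGA2 was higher and ITGB4 lower. ITGA2, the collagen-binding integrin chain, was at 12.2 and 36.5 CPM against 6.94, 13.0 and 21 CPM, higher within each number although the groups overlapped.

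Several secreted proteins outside these lists, named after their values were seen, were lower with the block. IGFBP4, which binds insulin-like growth factors, was at 444 and 174 CPM against 1681, 857 and 632 CPM (blocked log2 fold change -2.06, SE 0.242). FBLN1, a fibulin of basement membranes, was at 43.5 and 16.6 CPM against 130.4, 98.8 and 75.6 CPM (-2.12, SE 0.251), and the chemokine CXCL12 at 73.9 and 36.0 CPM against 219, 119 and 125 CPM (-1.72, SE 0.249). For each of these 3 the highest knockdown value was below the lowest control, and replicate 1 was the highest library of its group. BGN, which encodes the proteoglycan biglycan, showed how far the passages differed, at 689 and 115 CPM in shNRP1#3 and 1264, 669 and 557 CPM in shNT (blocked log2 fold change -1.72, SE 0.296). On the higher side stood CALB2, the calcium buffer calretinin, at 4.82 and 2.72 CPM against 0.559, 0.869 and 0.319 CPM (2.50, SE 0.377), and TENM2, a teneurin adhesion protein, at 62.5 and 23.1 CPM against 16, 10.6 and 14.2 CPM (1.59, SE 0.247).

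CCN2, a secreted matricellular protein and a target of YAP and TEAD, was at 167 and 157 CPM in shNRP1#3 and at 776, 368 and 540 CPM in shNT. Both knockdown values lay below every control, and the log2 fold change was -1.79 without the block (SE 0.366, adjusted p 0.0942) and -1.76 with it (SE 0.248, adjusted p 5.38e-06). NUAK2, a kinase that YAP also drives, was at 1.65 and 1.71 CPM against 4.16, 3.61 and 4.0 CPM (blocked log2 fold change -1.20, SE 0.299). These were the 2 members called, both lower, of 12 YAP and TEAD targets, whose median was -0.46 without and -0.40 with the block. With the block 3.25% of all genes were called lower. Among the HS578T siRNA samples, CCN2 was higher with siNRP1#3 (log2 fold change 3.095, edgeR adjusted p 0.000126) and was not called with siNRP1#5 (-0.08). The 3′ UTR of CCN2 also holds GACATTA, with 1 match in 1088 bases. In MDA-MB-231 CCN2 was lower with shNRP1#3 (-0.93, edgeR adjusted p 0.00599) and higher with shNRP1#5 (0.78, edgeR adjusted p 0.00553). In SUM159PT its change with shNRP1#3 (-1.34) did not pass. The part of the window or of YAP and TEAD in its change was not tested.

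The other lists held few calls with the block, where 3.25% of all genes were lower and 1.33% higher. The lower genes were BST2 of 20 interferon-stimulated genes, EGR1 of 14 AP-1 and immediate early genes, CDT1 of 18 replication genes and ENO2 of 18 glycolysis and hypoxia genes. BST2, the antiviral protein tetherin, was at 18.2 and 18.8 CPM against 40.7, 46.8 and 37.4 CPM (blocked log2 fold change -1.27, SE 0.232). The higher genes were ATF3 among the immediate early genes, IL6 of 14 cytokine and NF-kB genes, MDM2 of 14 p53 targets, and INHBA of 12 TGF-beta and BMP targets. MDM2, the ubiquitin ligase of p53, was at 6.09 and 11.5 CPM against 3.79, 4.25 and 6.80 CPM (blocked log2 fold change 1.00, SE 0.264). In 11 lists edgeR called 0 members with or without the block, namely claudin-low markers of either kind, EMT transcription factors, SRF targets, MAPK feedback, G2/M, cholesterol synthesis, unfolded protein response, RNA interference machinery, mitochondrially encoded and histone genes. Among them at most 2 members of any list passed an unadjusted p of 0.05 without the block. Among the list members reported here, DESeq2 without the block called PLXNA4, CCN2, BST2 and the histone gene H2AC6. ZEB1 and SNAI1, transcription factors of the mesenchymal state, were not called in either fit, SNAI1 at 1.75 and 0.785 CPM against 3.81, 1.54 and 1.11 CPM.

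The second hairpin, shNRP1#5, carries another sequence and is directed at all forms of NRP1. It shares the shNT samples with the comparison above, so the 2 hairpins were compared with each other directly. Between them 107 of 19661 genes passed (0.544%), 42 higher (0.214%) and 65 lower (0.331%) in shNRP1#3, and 1272 of 18496 with the block (6.88%). Without shNRP1#3 replicate 1 the 17-sample fit called 3 genes, without shNRP1#3 replicate 2 36, and without shNRP1#5 replicate 2 or 3 it called 23 and 67. NRP1 was not called between them, at 28.4 ± 4.17 CPM (SD, n = 3) in shNRP1#5 and a log2 difference of 0.50 (adjusted p 0.528). PFKP was lower in shNRP1#3 by -1.89 on the log2 scale (adjusted p 0.00589), from 206 ± 24.9 CPM in shNRP1#5, and SNAPIN by -1.36 (adjusted p 0.0102), from 24.4 ± 1.00 CPM. TPRG1L differed by -1.34 (adjusted p 0.00665) and DPF2 by -0.93, which did not pass without the block (adjusted p 0.0772) and passed with it (-0.85, adjusted p 0.0177). KIAA1191 was not called between the hairpins, at 58.3 ± 11.3 CPM in shNRP1#5 against a mean of 59.5 CPM in shNRP1#3 (log2 difference 0.03, adjusted p 0.974). ALDH1L1, at 0.162 CPM in shNRP1#5, was higher in shNRP1#3 by 3.35 (adjusted p 0.00665). NUAK2 was lower by -1.95 (adjusted p 0.0186), at 6.50 ± 1.47 CPM in shNRP1#5. CCN2 was at 484 ± 156 CPM there, and its difference of -1.58 did not pass without the block (adjusted p 0.0625), but passed with it (-1.54, adjusted p 1.9e-05).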

How the data were processed

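Bulk paired-end RNA sequencing of HS578T cells was analysed, with 2 samples of shNRP1#3 and 3 of shNT, numbered as in the labels. Replicate 3 of shNRP1#3 was not analysed here. The authors list 2 samples of this group and state that quality control removed 2 outlier samples from the series, without naming them. The authors checked reads with FastQC 0.11.9, trimmed them with Trim Galore 0.6.5, aligned them with STAR 2.7.2b to GRCh38 with the Ensembl annotation, and quantified genes and transcripts with RSEM 1.3.3, counting by strand. The deposited files give, per gene and transcript, expected counts, which are not scaled for depth, and TPM. For transcripts the deposited files also give the percent of the gene's TPM. Every column used was tied to a sample by its name, and 0 columns were left without one.

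Expected counts were rounded to whole numbers and tested in R 4.3.3 with edgeR 4.0.16 (filterByExpr, TMM, robust glmQLFTest). Adjusted p-values are Benjamini-Hochberg values over every gene or transcript tested, and the threshold was 0.05. All 17 HS578T samples (6 groups) shared 1 estimate of the spread, and interactions between lines used all 52 samples of the series (18 groups). A standard error was taken as the size of the log2 fold change divided by the square root of F. CPM values use TMM library sizes. Of replicate pairs, none agreed within sampling noise (chi-square per degree of freedom 40.8 to 197). Same-numbered shRNA samples deviated together from their group means (r = 0.243 to 0.672 in 7 pairs, against -0.584 to 0.487 in 14 pairs with different numbers), so the numbers were taken to pair the samples. The 2 ranges overlap, and shNRP1#3 replicate 2 deviated with shNT replicate 3 (r = 0.487) more than with shNT replicate 2 (r = 0.243). The deviations of the 2 shNRP1#3 samples are equal and opposite, and centring on group means sets samples of different numbers against each other. The pairs are therefore not independent, and the pairing was not tested. The 8-sample fit with the replicate block was added after this check had been seen. Alternatives were RLE scaling, no filter, DESeq2 1.42.0, other sample sets, the replicate block, and leaving out each replicate.

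Tested on simulated counts of 19042 genes, the 17-sample comparison recovered 89 of 200 genes changed by 1.5 on the log2 scale (44.5%), with 4 unchanged genes among 93 calls. The blocked comparison, on simulated counts of 18679 genes, recovered 84% of 200, and it called 12 genes where none had been changed.

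Named genes were NRP1, up to 12 past the threshold in each direction with a mean of at least 1 CPM in a group and no overlap (or the 5 lowest p-values where fewer than 5 passed), up to 4 called members or the 2 lowest p-values of each of 24 gene lists, and all tested NRP1 partners. One gene that the rule names is not reported here. Genes named outside this rule are marked as named after their values were seen. The comparison, the members and the lists were chosen with earlier results of these data known. Target and 3′ UTR sequences were read from the GRCh38 reference and its annotation with Python 3.11.15, pandas 2.3.3 and numpy 2.4.6, and plots were drawn with matplotlib 3.10.9.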

Additional observations from a re-analysis of the deposited data

Results flagged for a closer look

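Some named genes responded differently to the 2 hairpins in HS578T, by edgeR's direct contrast of shNRP1#3 with shNRP1#5 over 17 samples. On the log2 scale PEX5L was higher with shNRP1#3 by 3.54 (adjusted p 0.00336) and ALDH1L1 by 3.35 (adjusted p 0.00665). Lower with shNRP1#3 were NUAK2 at -1.95 (adjusted p 0.0186), PFKP at -1.89 (adjusted p 0.00589), SNAPIN at -1.36 (adjusted p 0.0102) and TPRG1L at -1.34 (adjusted p 0.00665). SNAPIN, PFKP and TPRG1L are genes with GACATTA in the 3′ UTR, while PEX5L and ALDH1L1 were below 3 CPM in every HS578T shRNA sample.

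Other named genes had a change with shNRP1#3 that differed between cell lines, by the interaction term of the 52-sample fit. PLEKHA6 was lowered more in HS578T than in SUM159PT, by -2.15 (adjusted p 0.0244), and than in MDA-MB-231, by -2.48 (adjusted p 0.00174). ALDH1L1 differed from MDA-MB-231 by 3.26 (adjusted p 0.00174). CCL2, a monocyte chemokine, differed by 3.16 (adjusted p 0.0495), with a log2 change of 1.12 in HS578T, which did not pass on its own, and of -2.05 in MDA-MB-231. TWIST2, an EMT transcription factor, differed by -6.68 (adjusted p 0.00627), and its interaction rests on MDA-MB-231, where replicate 3 of shNRP1#3 held 2.12% of HS578T-type RNA. The part of that RNA in the TWIST2 value was not tested.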

How the results depend on the processing

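The count of 7 genes between shNRP1#3 and shNT moved with most settings. It was 0 with the 2 groups alone (1052 at an unadjusted p under 0.05), 2 with the 8 shRNA samples, 252 without a filter, 146 with DESeq2 (25 higher, 121 lower), 18 with the replicate block over 17 samples, 848 with the replicate block over the 8 shRNA samples, and 0 to 7 when 1 replicate was left out. With every replicate 1 left out of the 8 shRNA samples, which leaves a single shNRP1#3 library, it was 1607 (909 higher, 698 lower). Where 1 shNRP1#3 library is left, it is assumed to vary like the other groups. It was 7 with RLE scaling and 8 without the siNRP1#5 samples. All 7 called genes lost the call without either shNRP1#3 replicate. SNAPIN, PFKP and TPRG1L kept it without any 1 shNT replicate, PLEKHA6 and ALDH1L1 lost it without each of the 3, and KIAA1191 and DPF2 without 2 of them. PLEKHA6 and DPF2 also lost it without the siNRP1#5 samples. The NRP1 log2 fold change came past the threshold without the siNRP1#5 samples (-1.59), without a filter (-1.56), with the block over 17 samples (-1.44) and over 8 samples (-1.44), and with DESeq2 (-1.60, adjusted p 3.07e-05). Without every replicate 1 it was -1.63, from a single shNRP1#3 library. Leaving out 1 replicate gave -1.67 to -1.43 with none past it (adjusted p 0.0664 to 0.516).

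Between the hairpins the 107 genes became 0 with the 2 groups alone (1469 at an unadjusted p under 0.05), 2 with 8 shRNA samples, 485 without a filter, 477 with DESeq2, 1272 with the block, 745 without every replicate 1 (a single shNRP1#3 library) and 3 to 159 with 1 replicate left out. The 848 genes of the blocked comparison ranged from 371 to 2509 with 1 replicate left out. The 24 interaction genes against SUM159PT became 230 without a filter, 15 with 26 shRNA samples, 155 with the block within each line, 64 with DESeq2 and 4 to 18 with 1 replicate left out. The 99 against MDA-MB-231 became 514, 36, 274, 252 and 20 to 182 in the same order. NRP1-206, NRP1-204 and the NRP1-204 share kept their direction and did not cross the threshold under any alternative run for them.

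Of the named genes, these changed sign under a block: LRFN1 with that over 17 samples (0.000599 against -0.04) and, with that over 8, VEGFC (0.0085), JCAD (0.0263) and MFAP2 (-0.15). No other direction among the named genes changed under a block. With 1 replicate left out, the log2 fold change without the block crossed 0 for 17 named genes, 0 of them among the 7 called. The ranges were TAGLN -0.88 to 2.00, NRP2 -0.12 to 0.64, PGF -0.54 to 0.42, MFAP2 -0.64 to 0.68, SEMA3C -0.0483 to 0.39, PLXNA2 -1.07 to 0.0559, GIPC1 -0.48 to 0.27, KDR -1.13 to 1.02, SEMA3E -0.11 to 4.41, SEMA3D -0.73 to 1.22, VEGFB -0.62 to 0.15, CAPN5 -0.77 to 0.36, INHBA -0.12 to 1.09, ITGA2 -0.16 to 1.43, ITGB4 -3.71 to 0.0571, LRFN1 -0.52 to 0.33 and MMP3 -1.15 to 1.21. The cause of these moves was not tested.

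With 2 shNRP1#3 samples of 1 population, 44.5% of known changes of 1.5 on the log2 scale were found in simulated counts, so changes of that size can be missed. The blocked fit rests on 2 within-number differences, and its calls include unchanged genes in simulation. Depth was at least 31676716 expected counts in each of the 5 samples and limits scarce transcripts such as FLT1 and ALDH1L1.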
